A study of Mus musculus with 14 samples.

Results

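Lungs that had received carbon fibre after its firing step (RCF, 4 arrays) were set against lungs that had received carbon fibre after its carbonization step (CCF, 3 arrays). These 7 arrays are those whose titles carry the 2 group names, out of 14 in the series, and each held lung RNA. All mice were C57BL/6N males, and each fibre group had received 200 µg per mouse into the trachea 6 months before the lungs were taken. The remaining arrays held lungs given fibre that had not been recycled (VCF, 4 arrays) or the phosphate-buffered saline vehicle (Ctrl, 3 arrays). These served only to estimate the spread and to place the levels. The design text calls the samples of a group independent biological samples. The labels give no age, no fibre dimensions and no time of day for the lungs.

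Recycling of carbon fibre from resin composites usually heats the composite until the resin is left as char, which is carbonization, and then burns the char away, which is firing. A fibre that reaches the deep lung is met first by alveolar macrophages, which engulf particles and signal to other immune cells. Lung tissue also carries its own circadian clock. In it the activators Arntl and Clock drive repressors such as the Per, Cry and Nr1d genes, together with the output factors Dbp, Tef and Hlf. The comparison asks how lung transcripts differ between the intermediate and the final form of the recycled fibre.

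A level is the log2 of the spot's processed signal over the array's 75th percentile, so 0 is a probe at that percentile, and a difference is the RCF mean minus the CCF mean on that log2 scale. That percentile ran from 738.4 to 1242.6 intensity units over the 7 arrays. Between 63.07% and 70.5% of the 41174 probes read well above local background. The number of arrays limits the precision. All 14 lung markers checked, among them the surfactant genes Sftpc and Sftpa1, the club cell gene Scgb1a1 and the alveolar type 1 gene Ager, were well above background on 7 of 7 arrays.

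Some arrays stood apart. On CCF replicate 2, 1626 of 43379 spots (3.75%) lay in areas where the signal was low against the other arrays, with a local median down to -6.04 (log2). VCF replicate 1, on the same slide, had 510 such spots in the same place, and none of the other 12 arrays had any. Of the 14468 genes tested, 594 were read from a probe in the low areas of CCF replicate 2, and their median difference was 0.38, against 0.02 for the rest. They made up 15.95% of the genes higher in RCF at an unadjusted p under 0.05. A fit with those spots set missing was therefore added after the data were seen, and its value is given wherever a gene lay there. Liver genes were high on CCF replicate 2 and RCF replicate 1, where the list score, the mean difference of its genes from the Ctrl mean, was 2.31 and 2.55, against -0.38 to 0.46 on the other CCF and RCF arrays. Thymus genes scored 1.79 on CCF replicate 3 and 0.81 on CCF replicate 2, against -0.12 to 0.56 on the other 5 arrays. Cardiac muscle scores ran from -1.41 to 2.05 in CCF and from -1.08 to 1.73 in RCF. RCF and CCF arrays shared slides 1, 3 and 4, each scanned in its own session, which gives 3 differences within a slide.

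**Figure D1:**
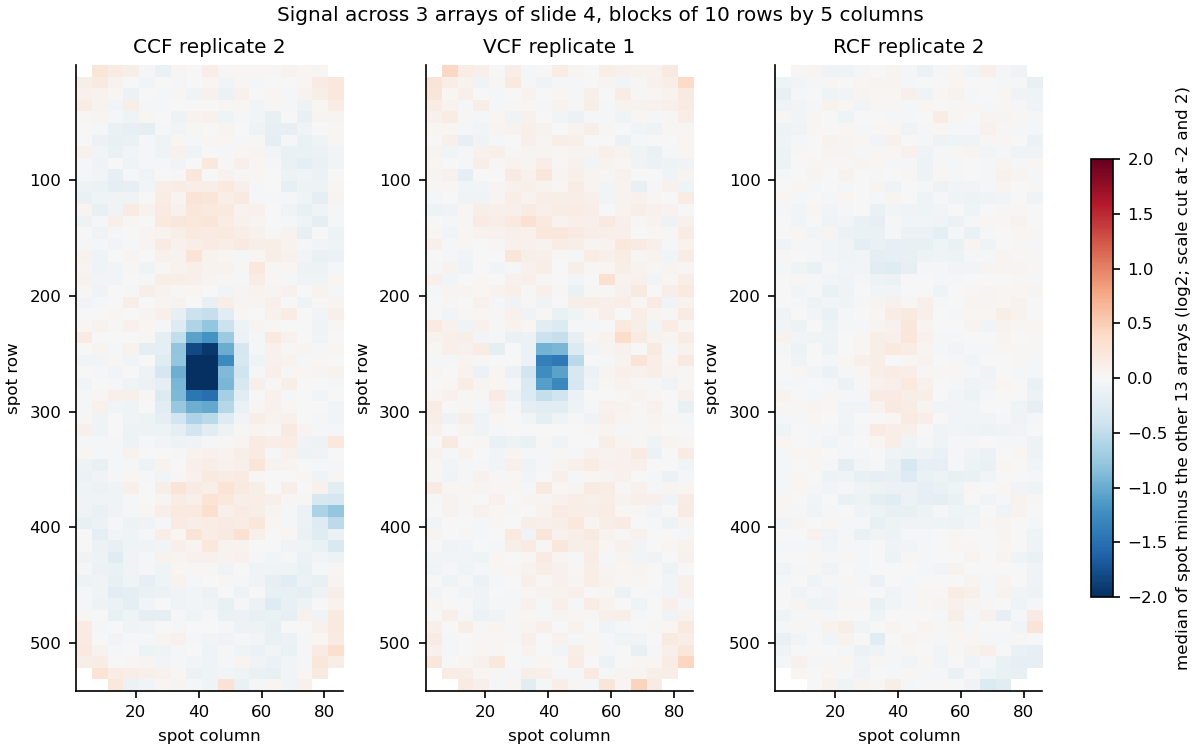
Median signal of blocks of spots on 3 arrays of slide 4, relative to the other 13 arrays, on a log2 scale; axes are spot row and spot column. CCF replicate 2 has a low area near the middle that goes down to a local median of -6.04 and a small one at its right edge, VCF replicate 1 has a milder one in the same place, and RCF replicate 2 has none.

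No single transcript separated the 2 fibre forms after correction for the number of probes. Of 29269 probes tested in limma, 0 passed an adjusted p of 0.05, and the smallest adjusted p was 0.415, shared by 125 probes. At an unadjusted p under 0.05 there were 2312 probes (7.9%), 1340 higher in RCF (4.58%) and 972 lower (3.32%). With 1 array left out these counts ran from 1603 to 3000 probes, 893 to 1643 higher and 709 to 1407 lower. List counts given below with an array left out have that wider background. Read as 1 probe per gene, 1135 of 14468 genes (7.84%) met that unadjusted threshold, 746 higher (5.16%) and 389 lower (2.69%). Whatever their p, 8013 of the 14468 genes (55.38%) were higher in RCF and 6455 lower, and the counts by direction below have that background. In 1004 genes (6.94%) every RCF array was above every CCF array, and in 447 (3.09%) every one was below, which makes 1451 genes (10%) with the groups apart. The sign was the same in the fit and within all 3 slides for 4590 genes (31.7%). With normexp background correction the split at the unadjusted threshold was 164 probes higher and 72 lower, and the median over all probes was 0.22 in place of 0.01. In what follows a gene is called higher or lower only as a description of its values, because no gene passed with all arrays in the fit.

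The 12 genes with the smallest p that were higher in RCF had varied roles, and those with levels clear of background on all 7 arrays are described first. Gulp1, an adaptor used in the engulfment of dying cells, was at 0.64, 0.91 and 1.08 on the 3 CCF arrays and at 1.57, 1.75, 1.49 and 1.57 on the 4 RCF arrays. The groups did not overlap, and the difference was 0.72 (SE 0.13, adjusted p = 0.415 in limma), a 1.65-fold higher signal. A second probe of Gulp1 differed by 0.10 (SE 0.15). Angpt2, the ligand that endothelial cells release to destabilise vessels through the receptor Tie2, was at 1.11, 0.95 and 1.01 in CCF and at 1.78, 1.75, 1.54 and 1.65 in RCF, a difference of 0.66 (SE 0.13, adjusted p = 0.415 in limma). Its RCF level also stood above the Ctrl mean of 0.89 ± 0.23 (SD, n = 3) and the VCF mean of 1.31 ± 0.15 (SD, n = 4). Wnt2, a growth signal made by lung mesenchyme, was 2.37 ± 0.10 (SD, n = 3) in CCF and 2.91 ± 0.14 (SD, n = 4) in RCF. Every RCF array was above every CCF array for Wnt2, as for Angpt2.

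Nmnat3, an enzyme that makes NAD in mitochondria, differed by 0.60 (SE 0.12), and Alg6, which adds glucose to the sugar chain used in protein glycosylation, by 0.57 (SE 0.12). Fancb, a member of the Fanconi anaemia DNA repair complex, differed by 0.64 (SE 0.13). Fam76b was higher by 0.58 (SE 0.12) and 9530003J23Rik by 0.72 (SE 0.14), with a second Fam76b probe at 0.27 (SE 0.17). Each of these 5 genes had its RCF arrays above its CCF arrays. Ldhc, the lactate dehydrogenase of the testis (probe A_51_P242403), had the smallest p among named genes, with levels of -8.11, -8.01 and -7.16 in CCF and -6.16, -6.36, -5.84 and -6.74 in RCF. It was well above background on 4 of 4 RCF arrays and 0 of 3 CCF arrays, and no lower bound of a fold above 1 can be given. Without CCF replicate 3 it passed, at 1.79 (adjusted p = 0.0415 in limma), but that value too rests on CCF signals not well above background. Slc16a11 and Ccdc122 lay in a low area of CCF replicate 2 and differed by 0.78 and 1.14, or by 0.64 and 0.89 with those spots set missing.

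Genes lower in RCF with the smallest p included receptors and adhesion molecules. Notch1, the receptor of a contact-dependent signalling pathway, was at -1.61, -1.20 and -1.09 in CCF and at -2.29, -1.80, -2.03 and -2.63 in RCF, a difference of -0.89 (SE 0.19, adjusted p = 0.415 in limma). The RCF mean of -2.19 ± 0.36 (SD, n = 4) lay nearer the Ctrl mean of -2.49 ± 0.08 (SD, n = 3) than the CCF mean of -1.30 ± 0.28 (SD, n = 3) did. Itga6, the integrin chain that binds laminin in basement membranes, was at 1.66, 0.83 and 1.41 in CCF and at 0.43, 0.59, 0.16 and 0.38 in RCF. It differed by -0.91 (SE 0.20), and again the groups did not overlap.

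Npr3, the clearance receptor for natriuretic peptides, differed by -0.93 (SE 0.23), and its other probes by -0.74 (SE 0.33) and -0.82 (SE 0.24). Ago2, the argonaute that cuts RNA under the guidance of small RNAs, differed by -1.09 (SE 0.24) and at its second probe by -0.70 (SE 0.24). Cars, which charges tRNA with cysteine, was at 1.02, 0.86 and 0.90 in CCF and at 0.43, 0.55, 0.54 and 0.52 in RCF, and its 3 probes differed by -0.42, -0.43 and -0.44. Slc43a1, a transporter of neutral amino acids, differed by -0.59 (SE 0.14). The RCF arrays of these genes were all below the CCF arrays. Smaller p values lower in RCF were also found for Rangap1, which activates the GTPase of nuclear transport (-0.54, SE 0.14), Ccdc85a (-0.67, SE 0.16) and Medag (-0.57, SE 0.14). Nr2c2, an orphan nuclear receptor, differed by -1.11 (SE 0.27) but by 0.12 with normexp background correction. Over the alternative fits the differences nearest 0 were -0.41 for Notch1, -0.24 for Ago2, -0.27 for Ccdc85a and -0.20 for Slc43a1. For Npr3, Cars, Medag and Rangap1 they were -0.81, -0.34, -0.48 and -0.46.

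**Figure D2:**
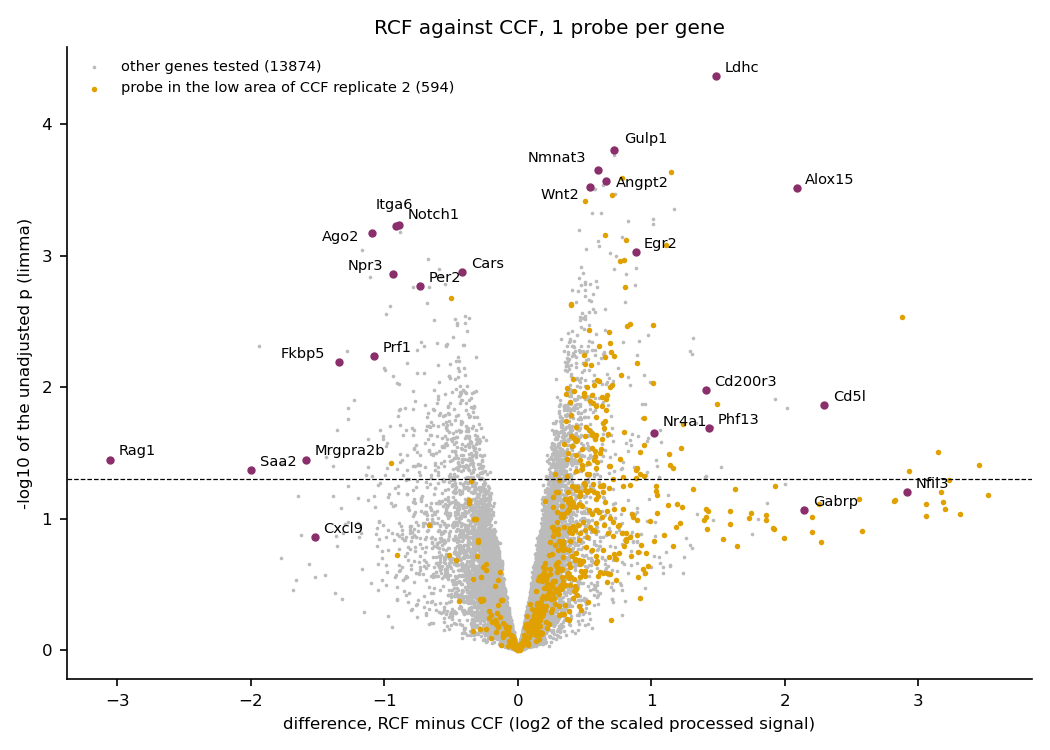
Difference between RCF and CCF (log2) against the unadjusted p from limma on a -log10 scale, 1 probe for each of 14468 genes; the dashed line marks an unadjusted p of 0.05. Genes read from the low areas of CCF replicate 2 (594) lie mostly to the right, and Ldhc, Gulp1 and Nmnat3 stand at the top of the genes named.

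The largest differences among genes above background on all 7 arrays with groups apart included immune genes and genes of the low areas. Cd5l, a protein that macrophages secrete, was at -4.33, -2.81 and -3.75 in CCF and at -2.65, -2.54, -0.82 and 0.67 in RCF. It varied widely within RCF, and the difference was 2.30 (SE 0.80, adjusted p = 0.54 in limma). Fkbp5, a chaperone that glucocorticoids induce, was at -1.41, -3.02 and -3.11 in CCF and at -4.17, -4.22, -3.15 and -3.88 in RCF. CCF replicate 1 was the high array, and without it the difference of -1.34 became -0.79. The other 2 probes of Fkbp5 differed by -1.12 and -0.24. Phf13, Aspa and Lamtor3 differed by 1.43, 1.24 and 1.22, but by 0.53, 0.49 and 0.40 with the low areas missing. Among the lower genes H1f3, a linker histone, differed by -1.27 (SE 0.46), but its second probe by -0.13 (SE 0.33). Mrgpra2b, a sensory-type receptor with close copies, differed by -1.58 (SE 0.67), and which copy its probe read was not tested. Over the alternative fits the differences nearest 0 were -0.32 for Fkbp5, -0.29 for H1f3 and -0.08 for Mrgpra2b. Gatad2b, a subunit of a chromatin-remodelling complex, differed by -1.23 (SE 0.42), or by 0.00 with normexp background correction.

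Clock repressors and outputs were mostly lower in RCF, and the activator list was split. Of 14 genes of the repressor and output list, 13 were lower, 8 of them at an unadjusted p under 0.05 (2.69% of all genes tested were), and none was higher at that threshold. The median difference was -0.39, beside 0.03 over all genes tested, and -0.33, -0.43 and -0.27 within slides 1, 3 and 4. Of the 14, 5 had all RCF arrays below all CCF arrays (3.09% of all genes) and 1, Per1, had them above (6.94%). The number at the unadjusted threshold was 6 without any 1 of the CCF arrays, 5 without RCF replicate 3 or RCF replicate 4, and 8 with the low areas missing. The list was chosen with these results known, so the count is a description.

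Arntl, which with Clock forms the activating complex, was at -1.49, -1.60 and -1.35 in CCF and at -0.93, -1.09, -1.05 and -0.80 in RCF. Every RCF array was above every array of the other 3 groups, whose means were -2.05 ± 0.26 (SD, n = 3) in Ctrl, -1.66 ± 0.23 (SD, n = 4) in VCF and -1.48 ± 0.12 (SD, n = 3) in CCF. The difference from CCF was 0.51 (SE 0.15, adjusted p = 0.479 in limma). Its partner Clock differed by 0.14 (SE 0.15), with overlapping arrays, and its other probes differed by -0.81 (SE 0.49) and 0.08 (SE 0.13). Of the 7 genes of the activator list 4 were higher and 3 lower, with a median of 0.14. That list is not made of activators alone. It also holds Nfil3, described below, and the repressor Cry1, which is thus not counted in the repressor and output list. At an unadjusted p under 0.05 were 1 higher gene, Arntl, and 1 lower, Rora, a nuclear receptor that drives Arntl, which differed by -0.56 (SE 0.26). With the low areas missing 0 lower genes of that list met the threshold.

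Per2, a repressor of that complex, was at 0.19, 0.25 and -0.44 in CCF and at -0.89, -0.72, -0.38 and -0.93 in RCF, a difference of -0.73 (SE 0.18, adjusted p = 0.415 in limma). CCF replicate 3 and RCF replicate 3 overlapped. A dimmer Per2 probe differed by 0.04 (SE 0.39). Nr1d1, the nuclear receptor that represses Arntl, was at 1.70, 0.89 and 1.66 in CCF and at 1.07, 1.09, 0.71 and 0.59 in RCF, and its 3 probes differed by -0.55, -0.67 and -0.31. Cry2, the partner of the Per proteins, differed by -0.31 (SE 0.13) and Bhlhe40, which represses through E-boxes, by -0.46 (SE 0.13), both with the groups apart. Ciart, a repressor of the same complex, was at -2.12, -2.01 and -2.59 in CCF and at -3.35, -2.91, -2.59 and -3.65 in RCF, a difference of -0.88 (SE 0.31).

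Tef, an output transcription factor, had RCF arrays that lay close together and below all CCF arrays. It was at 2.94, 2.83 and 3.02 in CCF and at 2.51, 2.54, 2.54 and 2.50 in RCF, and its 3 probes differed by -0.41, -0.58 and -0.56. The Tef mean was 2.52 ± 0.02 (SD, n = 4) in RCF, against 3.12 ± 0.18 (SD, n = 3) in Ctrl and 2.87 ± 0.16 (SD, n = 4) in VCF. Hlf, of the same family, differed by -0.36 (SE 0.16) with groups apart. Dbp, of that family too, was at 6.42, 6.00 and 6.36 in CCF and at 6.31, 6.31, 6.07 and 6.18 in RCF, a difference of -0.04 (SE 0.15). Wee1, a mitotic kinase under clock control, differed by -0.89 (SE 0.20), or by 0.39 with normexp background correction.

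Per1 went the other way. It was at 1.59, 1.32 and 0.86 in CCF and at 1.60, 1.75, 1.69 and 1.80 in RCF, a difference of 0.45 (SE 0.35), which became 0.26 without CCF replicate 3. Per1 responds to acute signals as well as to the clock, and Ctrl arrays spread by 0.81 (SD, n = 3) for it. Nfil3, a factor that opposes Dbp, Tef and Hlf, differed by 2.91 (SE 1.43) in the fit. That value rested on CCF replicate 2, at -7.36 in its low area, against 0.17 and 0.37 on the other CCF arrays and 0.69, 0.80, 0.47 and 0.61 in RCF. With the low areas missing Nfil3 differed by 0.37, and its other probe differed by -0.17 (SE 0.34). These genes cycle with the time of day, which the labels do not give for any lung.

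**Figure D3:**
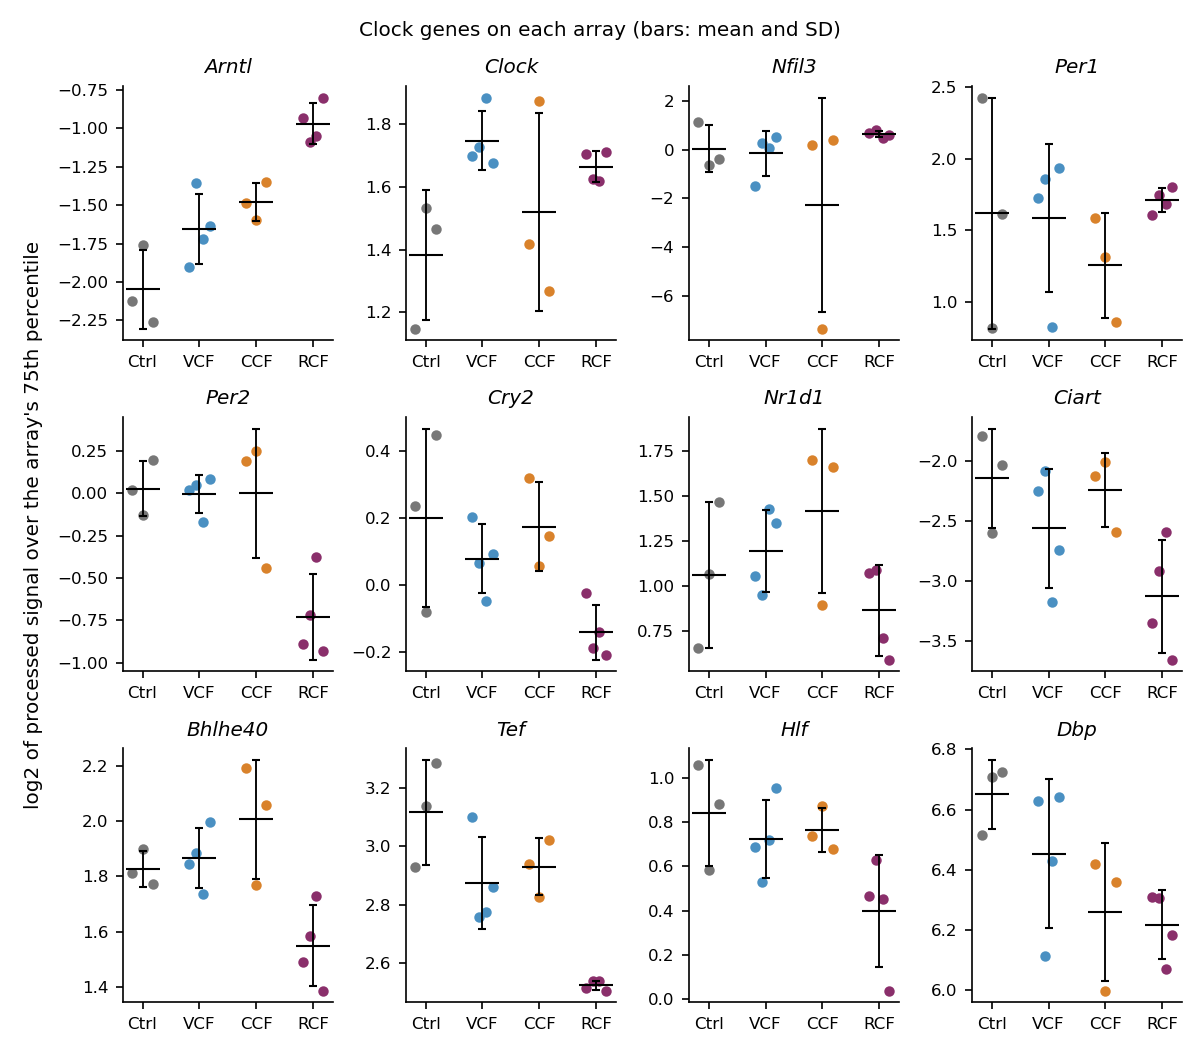
Level of 12 clock genes on each of the 14 arrays by group, as log2 of the processed signal over the array's 75th percentile; points are arrays, and bars give the mean and SD. The RCF points of Arntl lie above and those of Tef below all points of the other groups, while Dbp overlaps between RCF and CCF and Nfil3 has 1 CCF point at -7.36.

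The DNA before the start of these genes shows where the activating complex could bind by sequence. The E-box CACGTG, which reads the same on both strands, was searched in the 250 bases before each start in RefSeq promoters of GRCm38.p6, and 6.02% of 32851 promoters hold it. Of the 14 repressor and output genes 11 are in the table, and 4 of them hold it at 1 start or more (Per1, Tef, Ciart and Bhlhe41). That count is by gene, whereas the 6.02% is by promoter. The windows of Ciart and Tef, which were lower in RCF, and of Per1, which was higher, are shown with the E-box in capitals. The window of Egr2, an immediate early gene described next, is shown with its CArG box, the element that serum response factor binds, in capitals; 1.47% of promoters hold one.
Ciart, chr3:95882229-95882478, minus strand: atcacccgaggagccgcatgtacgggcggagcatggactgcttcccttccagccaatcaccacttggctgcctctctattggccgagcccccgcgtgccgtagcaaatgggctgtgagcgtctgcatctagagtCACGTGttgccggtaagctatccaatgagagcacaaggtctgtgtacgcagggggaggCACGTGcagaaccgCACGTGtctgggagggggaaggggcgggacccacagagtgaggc
Tef, chr15:81802423-81802672, plus strand: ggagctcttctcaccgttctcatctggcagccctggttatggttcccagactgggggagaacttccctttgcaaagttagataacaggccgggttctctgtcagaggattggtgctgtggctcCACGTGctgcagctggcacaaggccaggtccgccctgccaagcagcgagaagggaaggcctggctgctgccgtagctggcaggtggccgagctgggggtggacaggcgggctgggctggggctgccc
Per1, chr11:69098699-69098948, plus strand: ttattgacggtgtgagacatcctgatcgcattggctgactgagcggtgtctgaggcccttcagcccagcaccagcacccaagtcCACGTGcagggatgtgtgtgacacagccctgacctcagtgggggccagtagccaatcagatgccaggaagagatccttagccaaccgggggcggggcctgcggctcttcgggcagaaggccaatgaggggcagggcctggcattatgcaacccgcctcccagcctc
Egr2, chr10:67537316-67537565, plus strand: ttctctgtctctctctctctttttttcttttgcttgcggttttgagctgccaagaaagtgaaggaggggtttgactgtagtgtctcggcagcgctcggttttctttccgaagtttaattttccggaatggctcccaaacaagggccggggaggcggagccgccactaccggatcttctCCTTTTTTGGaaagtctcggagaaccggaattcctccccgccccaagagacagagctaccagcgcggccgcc
Ciart holds 3 E-boxes, whose first bases lie 116, 58 and 44 bases before the start, Tef holds 1 at 127 and Per1 1 at 166. The CArG box of Egr2 begins 72 bases before the start. Of 2 Per1 starts searched 1 holds the E-box, and of 5 Egr2 starts 4 hold the CArG box. Of the genes shown with the E-box, Tef (-0.41) and Ciart (-0.88) were lower and Per1 (0.45, SE 0.35) was higher in RCF. A match describes these letters and does not show that a factor bound there.

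Immediate early genes, which cells switch on within minutes of a stimulus, were mostly higher in RCF. Of 17 tested 16 were higher, 6 at an unadjusted p under 0.05 (5.16% of all genes were), and 8 had all RCF arrays above all CCF arrays (6.94% of all genes). The median difference was 0.48, beside 0.03 over all genes, and 0.58, 0.58 and 0.16 within slides 1, 3 and 4. The list score was 0.54, -0.57 and 0.02 on the Ctrl arrays, -0.25 to 0.03 in CCF and 0.32 to 0.44 in RCF. The saline lungs alone thus spanned a wider range than both fibre groups together. The count at the unadjusted threshold was 1 without CCF replicate 1, 2 without RCF replicate 4, 3 without RCF replicate 1, 4 without CCF replicate 3, RCF replicate 2 or RCF replicate 3, and 5 with the low areas missing.

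Egr2, a zinc finger factor, had the smallest p. Its level was 0.54, 0.47 and -0.06 in CCF and 1.17, 1.24, 1.02 and 1.36 in RCF, a difference of 0.88 (SE 0.20, adjusted p = 0.415 in limma). Nr4a1, an orphan nuclear receptor, was at 4.49, 5.52 and 5.09 in CCF and at 6.27, 5.93, 5.74 and 6.27 in RCF, a difference of 1.02 (SE 0.39). Atf3, a stress-induced repressor, was at 0.07, 0.42 and 0.46 in CCF and at 1.44, 1.41, 0.70 and 1.60 in RCF, a difference of 0.97 (SE 0.38). None of these 3 overlapped between the groups. For Atf3 the 3 Ctrl arrays alone spread by 1.06 (SD, n = 3) around 0.49, and for Nr4a1 by 1.07 (SD, n = 3) around 4.93, so the saline lungs spanned much of the same range.

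Fosb, a partner in the AP-1 factor, differed by 1.03 (SE 0.44), and Egr1, of the Egr2 family, by 0.69 (SE 0.31), both with groups apart. For these too the Ctrl arrays spread widely, by 1.08 and 0.93 (SD, n = 3). Fos, the best known AP-1 chain, differed by 0.73 (SE 0.49) with overlap, and Ctrl arrays spread by 1.25 (SD, n = 3) for it. Klf2, a factor of quiescent endothelium, and Btg2, a brake on the cell cycle, differed by 0.57 (SE 0.28) and 0.44 (SE 0.22) with groups apart. Klf2 became 0.27 without CCF replicate 3, and its other probe differed by -0.27 (SE 0.76). The other Btg2 probes differed by 0.07 (SE 0.32) and 0.05 (SE 0.34). Ier2 lay in a low area of CCF replicate 2 and differed by 0.57, or by 0.36 with the low areas missing. Egr3 and Nr4a3 were well above background on 0 of the 7 arrays and were not tested.

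Most genes of the eosinophil list were higher in RCF, while the granule genes that define the cell were undetected or imprecisely measured. Of 8 tested 7 were higher, 6 at an unadjusted p under 0.05 beside 5.16% of all genes, with a median of 0.75 and medians of 0.68, 0.79 and 0.87 within slides 1, 3 and 4. With the low areas missing 5 remained at that threshold, and without CCF replicate 3 there were 4. Epx and Prg3, granule proteins that define eosinophils, were well above background on 0 of 7 arrays and were not tested, and Prg2, the major basic protein, differed by 0.00 (SE 0.82). In whole lung RNA, more cells of a type and more RNA per cell cannot be told apart.

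Alox15, a lipoxygenase of eosinophils and macrophages, was at -7.17, -5.76 and -6.51 in CCF and at -5.11, -4.80, -3.68 and -3.99 in RCF, a difference of 2.09 (SE 0.42, adjusted p = 0.415 in limma). It was well above background on 4 of 4 RCF arrays and 1 of 3 CCF arrays, so the size of the difference rests on CCF signals near background. Il5ra, through which interleukin 5 acts on eosinophils, was above background on 4 of 4 RCF and 0 of 3 CCF arrays. The Il5ra difference was 1.31 (SE 0.39, adjusted p = 0.479 in limma), and the one nearest 0 over the alternative fits was 0.81. Set against the lowest signal above background on each CCF array, the RCF mean was 1.78-fold higher. That bound carries no error. The ribonuclease genes Ear1, Ear6 and Ear10, which alveolar macrophages express too, differed by 0.64 (SE 0.19), 0.57 (SE 0.18) and 0.57 (SE 0.19). Ear1 was at 3.71, 3.35 and 2.88 in CCF and at 3.65, 4.12, 3.98 and 4.05 in RCF, so CCF replicate 1 and RCF replicate 1 overlapped. These genes are near-identical copies, and their probes may read each other's transcripts. The Ear1 mean of 4.24 ± 0.08 (SD, n = 3) in Ctrl was above both fibre groups, at 3.31 ± 0.42 (SD, n = 3) in CCF and 3.95 ± 0.21 (SD, n = 4) in RCF. Ccr3, the eotaxin receptor, differed by 0.86 (SE 0.56). Siglecf, an inhibitory lectin found on both eosinophils and alveolar macrophages, lay in a low area and differed by 1.16 (SE 0.51), or by 0.40 with the low areas missing.

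Alveolar macrophage genes were mostly higher in RCF by small amounts. Of 19 tested 15 were higher, 4 at an unadjusted p under 0.05 (5.16% of all genes were), and the number was 2 with the low areas missing or without CCF replicate 2, RCF replicate 1, RCF replicate 2 or RCF replicate 4. Ear1 and Siglecf were among the 4 and are also counted in the eosinophil list. Of the 19 genes 0 had the groups apart (10% of all genes did). The median difference was 0.16, and 0.32, -0.01 and 0.09 within slides 1, 3 and 4. Fabp1, a fatty acid carrier, was at 2.25, 2.93 and 2.00 in CCF and at 3.1, 2.93, 2.89 and 2.97 in RCF, a difference of 0.58 (SE 0.20). Marco, a scavenger receptor for particles, differed by 0.55 (SE 0.39). Cd9, a membrane tetraspanin, differed by 0.59 and, with the low areas missing, by 0.18.

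Several genes of basophils and mast cells were higher in RCF, while the mast cell proteases Cma1 and Mcpt4 were near 0 with wide errors. Of 7 genes of the list tested 6 were higher and 2 had an unadjusted p under 0.05 (5.16% of all genes were higher at that threshold), with a median of 0.54 and medians of 0.66, 0.07 and 0.62 within slides 1, 3 and 4. No member kept an unadjusted p under 0.05 without CCF replicate 2 or without RCF replicate 1, and 1 did without CCF replicate 1, RCF replicate 2 or RCF replicate 4. Fcer1a, the chain of the IgE receptor that binds the antibody, was at -3.48, -3.81 and -2.99 in CCF and at -1.79, -2.26, -3.09 and -2.30 in RCF, a difference of 1.06 (SE 0.40). Ms4a2, its signalling chain, was above background on 3 of 4 RCF and 0 of 3 CCF arrays. Its difference was 0.96 (SE 0.43), and no lower bound of a fold is given, because not every RCF array was above background. RCF replicate 3, at -6.06, lay close to CCF replicate 1, at -6.08. Cpa3, a carboxypeptidase of both cell types, differed by 0.54 (SE 0.30) with groups apart. Mcpt8, a protease of basophils, was at -5.34, -5.33 and -3.49 in CCF and at -1.35, -3.29, -5.26 and -3.13 in RCF, and its difference of 1.46 (SE 0.83) became 0.83 without RCF replicate 1.

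Cd200r3, an activating receptor of basophils and mast cells, was at -4.10, -4.93 and -4.24 in CCF and at -2.34, -2.94, -3.56 and -3.23 in RCF, a difference of 1.41 (SE 0.47). Il4, the type 2 cytokine that basophils also make, was at -4.66, -5.08 and -4.64 in CCF and at -3.41, -3.59, -4.15 and -4.20 in RCF, a difference of 0.95 (SE 0.33). Both had all RCF arrays above all CCF arrays. In VCF lungs the same genes spread more, with Il4 at -3.92 ± 0.63 (SD, n = 4) and Cd200r3 at -3.49 ± 0.80 (SD, n = 4). The mast cell proteases Cma1 and Mcpt4 differed by -0.07 (SE 0.35) and 0.05 (SE 0.37), and a second Cma1 probe by 0.16 (SE 0.44). Tpsb2, a tryptase, was well above background on 0 of 7 arrays and was not tested.

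B cell genes were mostly higher and T cell and killer lymphocyte genes mostly lower in RCF. Of 14 B cell and plasma cell genes 12 were higher, 1 at an unadjusted p under 0.05 (5.16% of all genes), and 5 had the groups apart (6.94% of all genes), with a median of 0.28. The 1 gene, Ms4a1, lay in a low area, and a count of 1 in 14 is near the share of all genes. Without CCF replicate 3, RCF replicate 1 or RCF replicate 2 the 1 gene was lost, and without CCF replicate 2 there were 2. Cxcr5, which guides B cells into follicles, and Cr2, the complement receptor of B cells, differed by 0.52 (SE 0.24) and 0.51 (SE 0.27) with groups apart, though a dimmer Cr2 probe differed by -0.53 (SE 0.40). Ms4a1, which encodes CD20, differed by 0.77, or by 0.58 (unadjusted p = 0.14 in limma) with the low areas missing. The list then held 1 higher and 1 lower gene at the unadjusted threshold.

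Of 14 T cell genes 12 were lower and 2 had an unadjusted p under 0.05, and of 15 killer lymphocyte genes 14 were lower and 1 did, where 2.69% of all genes were lower at that threshold. The killer lymphocyte number is thus near that of all genes. The killer lymphocyte median was -0.27, and -0.29, -0.65 and 0.20 within slides 1, 3 and 4, so slide 4 went the other way. For the T cell list those slide medians were -0.53, -0.10 and -0.10. Lck, the kinase of the T cell receptor, was at 0.92, 0.85 and 1.12 in CCF and at -0.11, 0.28, 0.41 and 0.59 in RCF, a difference of -0.67 (SE 0.26). Cd8a, the co-receptor of cytotoxic T cells, differed by -0.70 (SE 0.28), and its other probes by -0.54 and -0.30. Cd3e, a chain of the T cell receptor complex, differed by -0.45 (SE 0.23), or by 0.12 with normexp background correction. Prf1, the pore protein of killer cells, was at -0.87, -1.50 and -0.89 in CCF and at -2.23, -1.46, -2.19 and -2.77 in RCF, a difference of -1.08 (SE 0.32). The CCF mean of Prf1, -1.08 ± 0.36 (SD, n = 3), was above the Ctrl mean of -2.004 ± 0.55 (SD, n = 3) and the VCF mean of -2.04 ± 0.35 (SD, n = 4).

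Thymus genes were also mostly lower in RCF, with the highest score of both the thymus and the T cell list on CCF replicate 3 (1.79 and 0.30). Among the RCF arrays, RCF replicate 1 had the highest thymus score (0.56) and the lowest T cell score (-0.26). Rag1, the recombinase of immature lymphocytes, was at -8.10, -4.14 and -0.93 in CCF and at -5.02, -8.39, -7.33 and -9.01 in RCF, and Dntt, the polymerase of the same cells, was at 1.11 on CCF replicate 3 against -3.22 to -1.51 on the other 6. Without CCF replicate 3 no T cell gene kept an unadjusted p under 0.05, nor without RCF replicate 1, while there were 4 without CCF replicate 2 and 1 without RCF replicate 3. Without CCF replicate 3, Cd8a differed by -0.45, and Lck by -0.59. Of the 8 thymus genes tested 7 were lower in RCF. The part of thymus tissue in the T cell values was not tested. Of 28 cell division genes 23 were lower, 1 at an unadjusted p under 0.05, near the 2.69% of all genes, with a median of -0.19 that became -0.07 without CCF replicate 3. Top2a, the topoisomerase of dividing cells, differed by -0.76 (SE 0.31), or by 0.33 with normexp background correction, and its second probe differed by 0.51 (SE 0.62).

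Neutrophil and acute phase genes were mostly lower in RCF, with wide spread. Of 13 neutrophil genes 12 were lower and 2 had an unadjusted p under 0.05 (2.69% of all genes), with a median of -0.56. The medians within slides 1, 3 and 4 were -1.44, -0.94 and 0.31, so slide 4 went the other way. Cxcr2, the chemokine receptor of neutrophils, was at -0.74, -0.31 and 0.13 in CCF and at -1.57, -0.29, -2.64 and -2.51 in RCF, a difference of -1.44 (SE 0.60) that its second probe gave as -1.37 (SE 0.59). RCF replicate 2 lay among the CCF arrays. S100a9, a chain of calprotectin, differed by -0.87 (SE 0.51) with groups apart. Of 15 acute phase genes 13 were lower and 2 had an unadjusted p under 0.05 (2.69% of all genes). Of the 2, Lcn2 is also counted among the neutrophil genes. The acute phase median was -0.29, and -0.70, 0.05 and -0.37 within slides 1, 3 and 4. Lcn2, which withholds iron from bacteria, differed by -0.98 (SE 0.43), or by -0.49 without CCF replicate 3. Saa2, a serum amyloid A gene made in liver and lung, was at -5.26, -0.83 and -3.11 in CCF and at -5.50, -5.11, -5.35 and -4.30 in RCF. Its difference of -1.997 (SE 0.89) became -0.88 without CCF replicate 2. The liver score was 2.31 on CCF replicate 2 and 2.55 on RCF replicate 1, the highest and the lowest array for Saa2. A part of liver tissue in the Saa2 values was not tested. No member of either list kept an unadjusted p under 0.05 without CCF replicate 3 or without RCF replicate 3, and no acute phase gene did without RCF replicate 1 or RCF replicate 2. The neutrophil number was 1 without CCF replicate 2, RCF replicate 1, RCF replicate 2 or RCF replicate 4.

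Chemokine and interferon lists had medians near 0 with all arrays in the fit, and their members went both ways. The medians were 0.01 over 17 CC chemokines, 0.12 over 12 CXC and other chemokines and -0.04 over 23 interferon response genes. Without CCF replicate 2 the interferon list had 18 of 23 genes lower, 4 at an unadjusted p under 0.05, and a median of -0.44. In that fit 1072 of 29269 probes were lower at that threshold. Without CCF replicate 3 the interferon list had 10 lower and a median of 0.05. Of the 12 CXC and other chemokines 8 were higher (55.38% of all genes were). The 1 at an unadjusted p under 0.05 was Cx3cl1, the membrane-bound chemokine, at 0.35 (SE 0.15). A count of 1 in 12 is near the 5.16% of all genes higher at that threshold. Without CCF replicate 1 the median of that list was -0.16, and that of the CC chemokines was also -0.16. Ccl12, an attractant of monocytes, was at -1.39, -1.85 and -0.86 in CCF and at -2.80, -2.59, -1.90 and -2.19 in RCF, a difference of -1.004 (SE 0.31, adjusted p = 0.491 in limma). Every RCF array was below every CCF array, and the Ctrl mean was -0.90 ± 0.50 (SD, n = 3). Cxcl9, an interferon-gamma target that attracts T cells, differed by -1.52 (SE 0.96) with groups apart, but Ctrl arrays spread by 2.53 (SD, n = 3). Ifit3 and its close copy Ifit3b, induced by interferon, differed by -0.43 (SE 0.16) and -0.66 (SE 0.17) with groups apart. Their differences nearest 0 over the alternative fits were -0.29 and -0.11. Their probes may read each other's transcripts. Il18, an inflammasome-processed cytokine, differed by 0.43, or by 0.37 with the low areas missing.

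**Figure D4:**
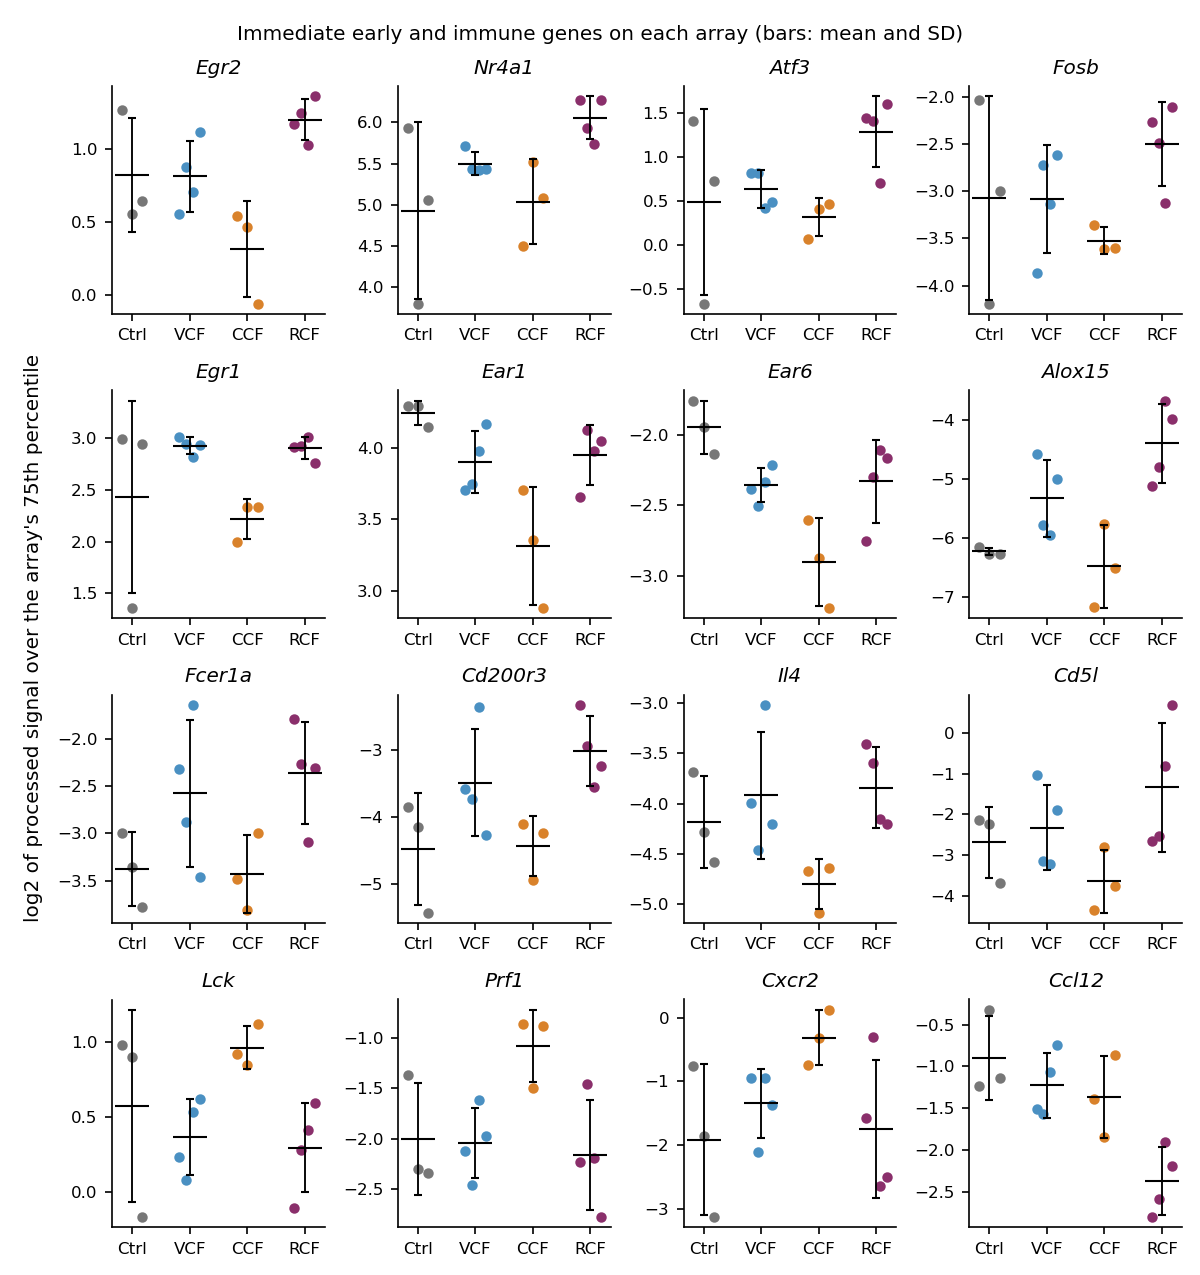
Level of 16 immediate early and immune genes on each of the 14 arrays by group, as log2 of the processed signal over the array's 75th percentile; points are arrays, and bars give the mean and SD. RCF lies above CCF without overlap for Egr2, Nr4a1, Atf3, Fosb, Egr1, Alox15, Cd200r3, Il4 and Cd5l and below it for Lck and Ccl12. For Nr4a1, Atf3, Fosb and Egr1 the 3 Ctrl arrays span much of the range.

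The stress response lists had small medians with all arrays in the fit, and the chaperone list depended on 1 array. Of 19 metallothionein and Nrf2 target genes 11 were higher and 8 lower, near the 55.38% higher over all genes, with a median of 0.08. Gclm and Gclc, the 2 chains of the enzyme that starts glutathione synthesis, differed by -0.50 (SE 0.20) and -0.47 (SE 0.19). Gclm was at -1.05, -1.28 and -0.9958 in CCF and at -1.54, -1.43, -1.60 and -1.86 in RCF without overlap, while Gclc became -0.25 without CCF replicate 2. Gsta3, a glutathione transferase, lay in a low area and differed by 0.58, or by 0.23 with the low areas missing, and by 0.10 at its second probe. Of 17 heat shock and chaperone genes 12 were lower, 2 at an unadjusted p under 0.05 (2.69% of all genes), and 5 were higher, 1 at that threshold (5.16%), with a median of -0.16. Without CCF replicate 3, 16 were lower, 8 at the unadjusted threshold, where 812 of 29269 probes were lower, and the median was -0.47. Without CCF replicate 1 or CCF replicate 2 it was -0.06 or -0.05. Hspa5, the main chaperone of the endoplasmic reticulum, differed by -0.44 (SE 0.15), or by -0.27 without CCF replicate 2. Dnajb1, a helper of cytosolic Hsp70, differed by 0.64 (SE 0.22), or by 0.37 without CCF replicate 3 and by -0.01 at its second probe. Hspb1, a small heat shock protein, differed by -0.45 (SE 0.19), or by -0.20 without CCF replicate 1.

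Of 17 genes of the amino acid and unfolded protein stress list 10 were lower, with a median of -0.11 that became 0.02 without CCF replicate 1. At an unadjusted p under 0.05 were 3 lower genes (2.69% of all genes), Cars, Psat1 and Ddit3, and 1 higher gene (5.16%), Atf3. Psat1, an enzyme of serine synthesis, differed by -0.33 (SE 0.11), and Ddit3, the stress factor CHOP, by -0.35 (SE 0.16), or by -0.23 without CCF replicate 1. Glucocorticoid targets were split, with 7 of 14 higher and 7 lower. Of these, 4 lower genes (2.69% of all genes) and 1 higher gene (5.16%) had an unadjusted p under 0.05, and 2 lower and 0 higher genes did without CCF replicate 3. Map3k6, a kinase of the stress pathway, was at 3.53, 2.52 and 2.07 in CCF and at 1.47, 1.49, 2.22 and 1.31 in RCF, and its 2 probes differed by -1.09 (SE 0.33) and -1.03 (SE 0.31). As for Fkbp5, CCF replicate 1 was the highest array, and without it the difference was -0.67. Errfi1, an inhibitor of the EGF receptor, differed by 0.59 (SE 0.21), or by 0.27 without CCF replicate 3.

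Enzymes of foreign compound and sterol metabolism differed singly. Cyp2b10, a target of the receptor CAR, differed by -0.47 (SE 0.15), or by -0.28 without CCF replicate 1. Cyp2s1, a P450 of airway epithelium, was at 4.95, 5.57 and 5.68 in CCF and at 6.17, 5.90, 6.23 and 5.91 in RCF, a difference of 0.65 (SE 0.20). Setting the low areas missing gave 0.74, and without CCF replicate 1 it was 0.43. Fmo2, the main flavin monooxygenase of lung, differed by -0.66 (SE 0.25), and its second probe by -0.21 (SE 0.17). Cyp51 and Hmgcs1, enzymes of cholesterol synthesis, differed by 0.40 (SE 0.15) and 0.40 (SE 0.17), with further Cyp51 probes at 0.29 and 0.03.

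Most lists of structural lung cells had medians near 0 with all arrays in the fit. Of 9 alveolar type 1, 14 alveolar type 2 and surfactant, 13 endothelial, 17 fibroblast and matrix and 21 collagen genes, none had an unadjusted p under 0.05. Their medians were 0.03, -0.07, -0.01, 0.05 and 0.01 in that order, near the 0.03 over all genes. Leaving out CCF replicate 1 gave 2 higher and 1 lower alveolar type 2, 1 higher fibroblast and 2 higher collagen genes at that threshold. In that fit 859 of 14468 genes were higher and 483 lower at it. Of 26 oxidative phosphorylation genes none had an unadjusted p under 0.05, with all arrays or without CCF replicate 1. With all arrays 19 were higher, with a median of 0.03, and without CCF replicate 1, 20 were lower, with a median of -0.08. Airway and pleural lists lay further from 0. Of 13 airway club and secretory genes 10 were lower, 0 at an unadjusted p under 0.05, with a median of -0.33, and without CCF replicate 2 the median was 0.10 and 11 were higher. Of 15 genes of motile cilia 13 were higher, 1 at that threshold, near the 5.16% of all genes, with a median of 0.16. Leaving out CCF replicate 2 gave 0.31, and leaving out CCF replicate 1 gave 0.06. Of 10 pleural mesothelial genes 8 were lower, with a median of -0.13. Without RCF replicate 4 the number at the unadjusted threshold went from 0 to 4, in a fit where 1603 of 29269 probes met it. With 3 and 4 arrays, a p that misses the threshold does not show that these genes are alike after both fibre forms.

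**Figure D5:**
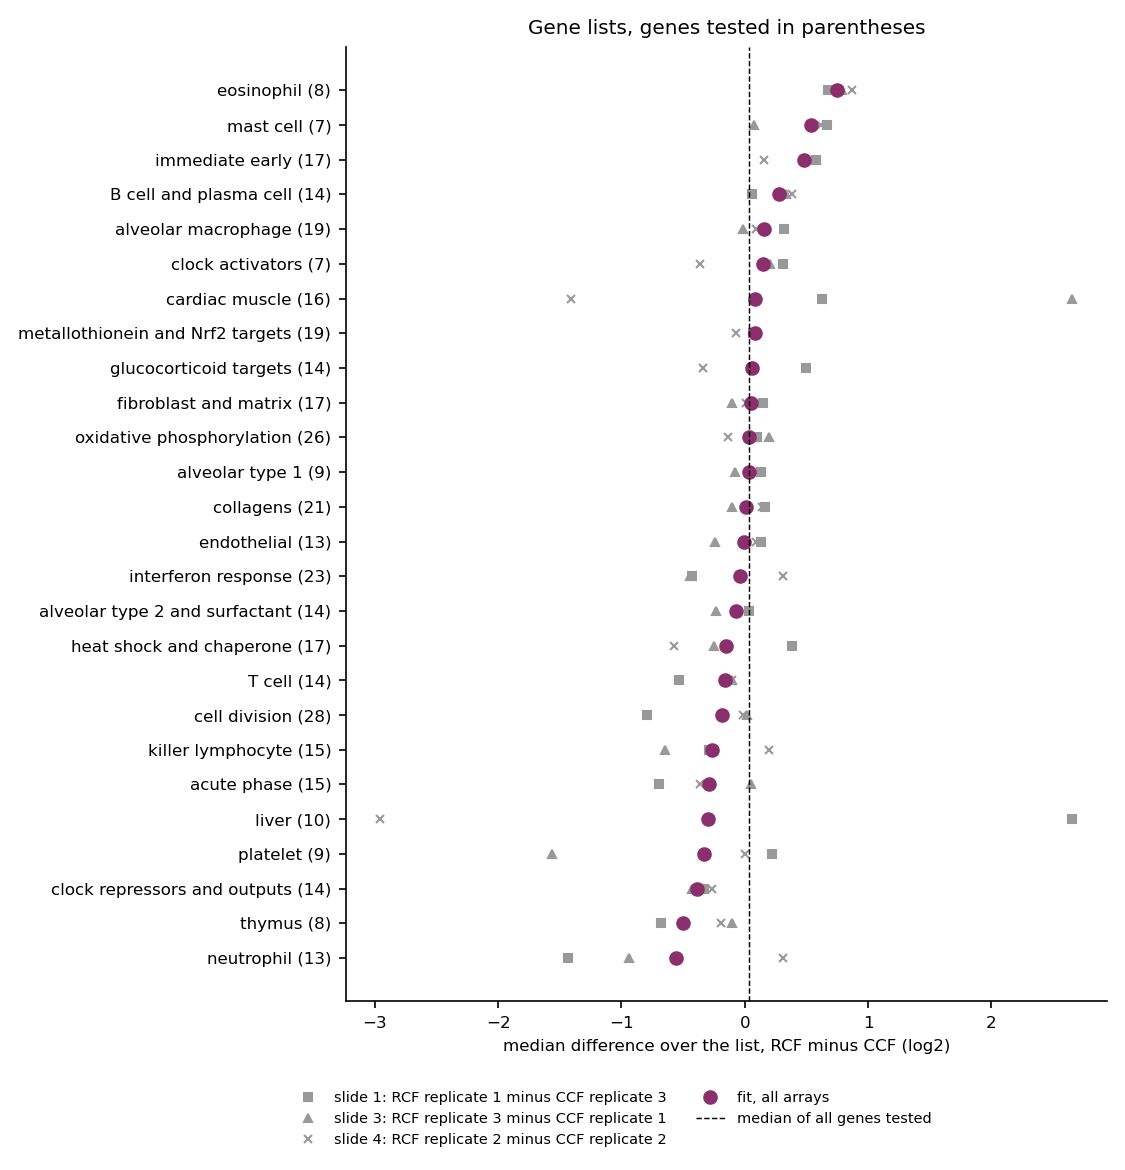
Median difference between RCF and CCF (log2) over the tested genes of 26 gene lists, from the fit and within slides 1, 3 and 4; the dashed line is the median of all genes tested, 0.03. The eosinophil and the clock repressor lists keep their side within all 3 slides, whereas liver, cardiac muscle and neutrophil medians change side between slides.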

How the data were processed

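RNA of 14 mouse lungs was labelled with Cy3 and read on single-colour Agilent 4x44K arrays. Per the file headers, Feature Extraction 10.7.3.1 made the processed intensity of each spot by subtracting background and nothing in the headers normalizes it between arrays. Flags and other columns come from the same deposited files. The authors' deposited log2 values (27496 probes, array medians -1.27 to -1.19) equalled log2 of the processed intensity minus a constant for each array, within 0.01 for 99.9% of values, and were an alternative. Scale, direction and centring per array are thus known, but not the choice of probes.

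Here log2 intensity minus each array's 75th percentile was used. Outlier-flagged spots and controls were left out and spots of a probe averaged. The 29269 probes well above background on at least 3 of 14 arrays were tested in limma 3.58.1 (R 4.3.3) on all 14 arrays together (degrees of freedom 10, plus 2.39 from the prior), two-sided, with Benjamini-Hochberg adjustment; 122 had an array missing and were fitted without it. Genes (14468) were read at their brightest tested probe, named through RefSeq accessions (GRCm38.p6). Genes named are 12 in each direction of smallest p with groups apart, above background in the brighter group and of the same sign on the 3 shared slides, the 5 largest differences in each direction, and, for the lists described gene by gene, members from the 3 of smallest p plus others that show the range; Prg2, Cma1, Mcpt4, Dntt and the untested genes were named after their values were seen. Members and lists were chosen with earlier results of these data known. Low areas are spots whose local median (7 rows and 2 columns to each side) was under -0.5 against the other arrays. Deviations of same-numbered CCF and RCF replicates from their group means correlated at -0.16, 0.06 and -0.21. With so few arrays in a group these values cannot decide whether numbers pair lungs, and the fit used no pairing. The labels do not say more of how the samples are independent than the design text does, so p-values measure the spread between these samples. The computations were tested on simulated data. The normexp alternative used the median spot intensity, because the mean was not analysed here, with an offset of 50. Figures used Python 3.11.15, pandas 2.3.3 and matplotlib 3.10.9.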

Additional observations from a re-analysis of the deposited data

Results flagged for a closer look

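Among the 4 RCF arrays, 10 of 158 items checked (109 genes and 49 list scores) had 1 array far from the other 3; chance gives about 1 in 20. RCF replicate 1 stood apart in Alb (0.59, next -3.12), Fgb (-1.16, next -6.56) and the liver score (2.55, next 0.11), and also in Aspa (0.30, next 0.06) and the lipid synthesis and sterol score (0.22, next 0.11). RCF replicate 3 was high for Klf2 (7.06, next 6.91) and for the B cell and plasma cell score (0.20, next -0.01). RCF replicate 4 was low for the clock repressor and output score (-0.57, next -0.43). It was high for the unfolded protein and amino acid stress score (-0.061, next -0.090) and for the inflammasome and cytokine score (0.14, next -0.15). Causes were not tested.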

How the results depend on the processing

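The cause of the changes below was not tested. The count of probes past the adjusted threshold was 0 in limma under every alternative except without CCF replicate 3 (3 probes), without RCF replicate 2 (1 probe) and with the low areas missing and no CCF replicate 3 (2 probes), so the range over arrays left out was 0 to 3. At an unadjusted p under 0.05, probe counts ran from 1603 to 3000 over arrays left out, with 893 to 1643 higher and 709 to 1407 lower. Normexp background correction gave 236 probes (164 higher, 72 lower). With no filter on dim probes most were lower, with 1213 higher and 1544 lower. Most were also lower without RCF replicate 2, with 1239 higher and 1297 lower. Scaling by the median made 67.39% of the probes at that threshold higher, against 57.96% with the 75th percentile. The replicate block gave 1760 probes (919 higher, 841 lower; smallest adjusted p 0.786) and changed no call. Whether same-numbered arrays are paired cannot be decided from so few arrays.

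Of 3044 gene values over alternatives, 3012 kept their direction. With normexp, the differences of Wee1 (0.39), Nr2c2 (0.12), Gatad2b (0.0043), Dbp (0.045), Cd3e (0.12), Top2a (0.33), Prg2 (0.56) and Cma1 (0.025) turned positive. Prg2, at 0.00, was also positive with quantile normalization (0.030), median scaling (0.037), the authors' deposited table (0.00018), the replicate block (0.0053) and low areas missing (0.016), and at 0.71 without CCF replicate 2 and RCF replicate 1 together. In that last setting Mcpt4 was -0.24 and Gabrp -0.096. Gabrp lay in a low area of CCF replicate 2 and differed by 2.15 with all arrays, or by 0.09 with the low areas missing. Alb was 0.052 with array weights. With low areas missing and no CCF replicate 3, Dbp was 0.032 and Cd9 -0.012. Over arrays left out, Dbp ran from -0.17 to 0.038, Alb from -1.73 to 0.52, Fgb from -2.94 to 0.24, Prg2 from -0.77 to 0.43, Cma1 from -0.19 to 0.077 and Mcpt4 from -0.12 to 0.13. The number of arrays and, for dim probes, signal near background limit the precision.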
